A study of Rattus norvegicus with 24 samples.

Results

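Lungs of rats with brain damage (BD) that had been ventilated with a high tidal volume and low positive end-expiratory pressure (HVT/LPEEP) were compared with lungs of BD rats ventilated with a low tidal volume and an open-lung, or best, positive end-expiratory pressure (LVT/OLPEEP). The members of the comparison were chosen by their labels, as all arrays of both BD groups, and were 12 of the 24 arrays of the series, 6 in each group with 1 rat per array. All animals were adult male Wistar rats under ketamine and xylazine. The protocol set 6 h of ventilation, at 12 mL/kg in HVT/LPEEP and at 6 mL/kg in LVT/OLPEEP. BD was produced by inflating a balloon catheter in the epidural space. The other 12 rats (NBD) had no brain damage and no trepanation, were ventilated in the same 2 ways, and served here for the spread between rats and as the comparison without BD. RNA came from the right lung as a whole, and 2 of the 6 BD HVT/LPEEP rats did not survive, which the sample labels leave unmarked. How long these 2 rats were ventilated is not stated. In what follows, HVT and LVT rats are those of the BD groups unless NBD is stated, rats are given by their label number, and all values are log2 expression on an array (5.73 to 14.53, median 9.18).

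Overstretch of the alveolar wall is known to set off mechanically sensitive signalling in epithelium and endothelium, including EGF receptor ligands shed or transcribed by stretched cells, immediate early transcription factors, and NF-kappaB, which drives chemokine and cytokine genes. Chemokines recruit neutrophils, monocytes and lymphocytes into the airspace, tissue factor starts coagulation there, and injured alveoli lose the gene expression of differentiated type I and type II cells. Brain damage is known to release catecholamines and inflammatory mediators into the circulation, which reach the lung.

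Of 19239 features, 549 were higher in HVT than in LVT (2.85%) and 542 were lower (2.82%) at an adjusted p under 0.05 in limma's moderated test, with Benjamini-Hochberg adjustment over all features. The higher side reached further. At least 1.5-fold differences were met by 174 of the higher (0.904% of all features) and 89 of the lower ones (0.463%), and at least 2-fold differences by 50 and 6. The median difference was 0.46 among the higher features and -0.37 among the lower ones, against -0.01 over all features, of which 46.4% lay above 0. The 6 values of HVT lay wholly above the 6 of LVT for 272 features (1.41%) and wholly below them for 339 (1.76%), and 213 and 225 of these also passed the test. The total of 1091 was 602 without LVT rat 20, 619 without LVT rat 18, 721 without HVT rat 28 and 1668 without NBD HVT/LPEEP rat 12, and 479 features passed in each of the 24 fits that left out 1 rat. When features were cut into 5 bins of equal size by level, 0.52% of the dimmest bin were higher and 0.234% lower, whereas 3.04% of the brightest bin were higher and 4.99% lower.

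**Figure D1:**
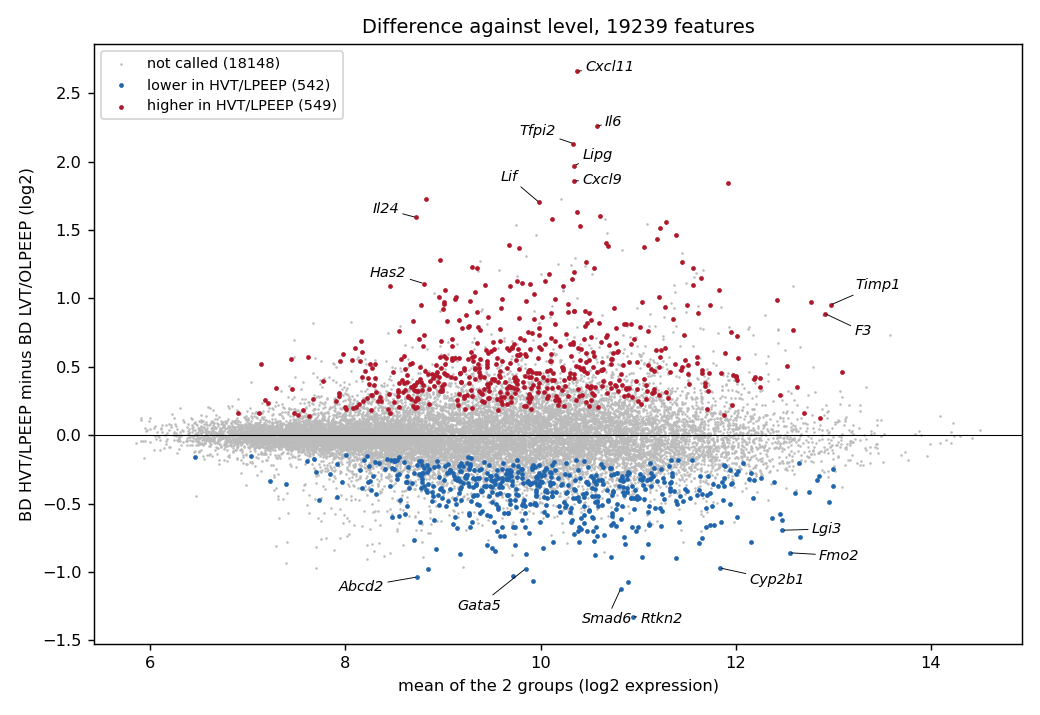
Difference between BD HVT/LPEEP and BD LVT/OLPEEP (log2, vertical axis) against the mean level of both groups (log2, horizontal axis) for 19239 features, with the 549 higher and 542 lower features in colour. The higher features reach 2.66 (Cxcl11) and the lower ones -1.33 (Rtkn2).

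The 24 arrays had identical sorted values, and no pair of arrays was the same. Each BD array correlated with the others of its group at 0.955 to 0.982 on average, the lowest being LVT rat 16, in which 14 skeletal muscle markers averaged 3.26 above their mean over the 12 BD rats against -0.39 to -0.04 in the other 11. With the arrays of the other BD group the average was 0.948 to 0.974. LVT rats 14, 9 and 7 correlated about as well with the other group (0.974, 0.974 and 0.973) as with their own (0.975, 0.974 and 0.972). The remaining BD arrays correlated more with their own group, HVT rat 37 by little (0.976 against 0.974). Lung markers were among the brightest features in both groups. Sftpc (surfactant protein C), Sftpb (surfactant protein B), Scgb1a1 (the club cell secretory protein) and Ager (a type I cell receptor) had mean levels at or above the 99.9th percentile of all features, and Sftpc lay between 14.24 and 14.33 in all 12 rats. The mean of all features called higher was lowest among the HVT rats in rat 37, at 0.10 above the mean of the 12 rats, and highest in rat 11, at 0.40.

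The promoter sequence of some inflammatory and stretch-responsive genes is shown first, because NF-kappaB, AP-1, cAMP and interferon response motifs are their best known control elements. Promoters were taken from RefSeq on GRCr8, as 250 bases before to 50 after each start of transcription, in a strain (BN/NHsdMcwi) other than the one studied. Of the features with a symbol, 13526 had one, among them 399 of the higher and 399 of the lower features. A match to the NF-kappaB motif on either strand was held by 12.5% of the higher, 8.52% of the lower and 8.86% of all 13526 promoters, and by 20.2% of the 124 that were at least 1.5-fold higher. The AP-1 motif TGANTCA was held by 7.77%, 5.01% and 6.25%, the cAMP response element TGACGTCA by 4.76%, 2.26% and 2.41%, and the interferon-stimulated response element by 4.26%, 2.26% and 3.33%. The GC box GGGCGG was held by 54.1% of the higher, 63.9% of the lower and 50% of all promoters, so both called sets lay above all promoters. The median GC content was 59%, 62.3% and 58%. These shares are descriptions, and a match is not a proven site.

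Stretches of 8 promoters follow, read 5′ to 3′ in the direction of transcription. Matches to the NF-kappaB, AP-1, cAMP and interferon response motifs (but not the other motifs searched) are in capitals. Each stretch has 12 bases on either side of its matches, except that of Tapbp, which ends at the base before the start. The 8 were picked as called genes of different roles that held at least 1 match. In the chemokine promoters of Cxcl1 (chr14:17479383-17479417, minus strand), Cxcl6 (chr14:17596483-17596517, minus strand), Cxcl11 (chr14:15973631-15973675, plus strand) and Ccl7 (chr10:67514010-67514057, plus strand), an NF-kappaB match began 84, 88, 74 and 59 bases before the start. In Cxcl11 and Ccl7 an AP-1 match preceded it, at 85 and 73 bases. Both strands of the Cxcl1 and Cxcl6 sites match the motif.
Cxcl1: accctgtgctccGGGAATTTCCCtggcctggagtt
Cxcl6: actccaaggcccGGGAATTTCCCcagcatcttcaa
Cxcl11: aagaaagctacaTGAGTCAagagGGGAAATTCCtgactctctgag
Ccl7: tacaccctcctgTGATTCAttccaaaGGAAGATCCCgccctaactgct

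The promoters of Il6 (chr4:5894622-5894749, minus strand) and of Tfpi2, an inhibitor of tissue factor and plasmin (chr4:32941338-32941427, minus strand), each held matches to different motifs. In Il6 the cAMP response element stood 162 bases and the NF-kappaB match 68 bases before the start. In Tfpi2 the NF-kappaB match stood at 139 and the AP-1 match at 80 bases. Tapbp, which loads peptide onto class I histocompatibility molecules (chr20:4967878-4967950, minus strand), held an NF-kappaB match at 61 bases and overlapping interferon-stimulated response elements at 26 and 20. Areg, the EGF receptor ligand amphiregulin (chr14:17265713-17265744, minus strand), held a cAMP response element at 91 bases.
Il6: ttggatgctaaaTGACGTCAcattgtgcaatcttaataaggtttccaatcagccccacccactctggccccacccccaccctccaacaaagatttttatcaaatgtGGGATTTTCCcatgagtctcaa
Tfpi2: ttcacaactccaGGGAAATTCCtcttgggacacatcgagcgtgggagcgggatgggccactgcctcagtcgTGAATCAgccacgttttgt
Tapbp: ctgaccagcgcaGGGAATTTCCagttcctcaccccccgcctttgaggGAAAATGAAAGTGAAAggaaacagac
Areg: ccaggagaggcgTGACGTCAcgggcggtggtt

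Chemokine genes were among the largest rises. Of 21 measured CXC chemokines and receptors 6 were higher and 0 lower, with a median difference of 0.42 and 17 members above 0. Cxcl11, an interferon-inducible ligand of the T cell receptor CXCR3, lay at 9.95, 11.81 and 13.18 (lowest, median and highest rat) in HVT and at 8.03, 9.00 and 9.98 in LVT, a difference of 2.66 ± 0.57 (SE, adjusted p = 0.0092). The groups overlapped only in that the lowest HVT rat, number 37, lay just under the highest LVT rat. Cxcl9, another CXCR3 ligand, lay at 10.09, 11.44 and 12.39 in HVT and at 8.75, 9.48 and 10.05 in LVT (1.86 ± 0.38, adjusted p = 0.00727), with no overlap. Both interferon-inducible ligands had a lower mean under HVT/LPEEP in NBD, by -0.79 for Cxcl11 and -0.84 for Cxcl9, and by -0.33 and -0.58 without NBD LVT/OLPEEP rat 30. Cxcl6, a neutrophil chemoattractant whose site is printed above, lay at 8.24, 8.34 and 9.10 against 7.72, 7.85 and 8.06 (0.61 ± 0.12, adjusted p = 0.00715), again without overlap. Cxcl1, a neutrophil chemoattractant whose site also reads on both strands, differed by 1.27 ± 0.33 (adjusted p = 0.0254) with overlapping groups, and it no longer passed without HVT rats 11, 26 or 22 or LVT rats 20 or 18 (adjusted p = 0.051 to 0.07). The number of CXC genes called fell to 3 without LVT rat 20.

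Among 29 CC chemokines and receptors 7 were higher and 1 was lower, with a median of 0.28. Ccl7, a monocyte chemoattractant, lay at 11.47, 12.05 and 12.22 in HVT and at 9.06, 10.48 and 11.44 in LVT (1.52 ± 0.32, adjusted p = 0.00859), and the groups lay apart by a narrow margin. Ccl22, a ligand of CCR4 on regulatory and helper T cells, lay at 9.50, 9.81 and 10.38 against 8.60, 8.97 and 9.44 (0.86, adjusted p = 0.0172), also apart. The exception was Ackr4, a scavenging receptor that removes CC chemokines without signalling. It lay at 9.06, 9.10 and 9.51 in HVT and at 9.56, 10.10 and 11.31 in LVT (-1.03 ± 0.26, adjusted p = 0.0215, and 0.052 without LVT rat 20). Of this family 2 to 4 members were higher without any 1 of HVT rats 11, 28, 26, 24 and 22 or LVT rats 20, 18 and 7.

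Of 16 measured members of the interleukin 6 family and its receptors 2 were higher and 1 was lower, with 11 above 0 and a median of 0.14, and 1 was higher without HVT rats 11 or 26 or LVT rats 20 or 18 and 4 without NBD HVT/LPEEP rat 12. Lif, which signals through the LIF receptor and gp130, lay at 10.29, 10.79 and 11.84 in HVT and at 8.65, 9.17 and 9.70 in LVT, one of the smallest p-values of the comparison (1.70 ± 0.22, adjusted p = 0.000341). Its receptor gene Lifr went the opposite way, from 11.82, 11.97 and 12.41 in LVT to 11.05, 11.26 and 11.54 in HVT (-0.75 ± 0.17, adjusted p = 0.0109), and neither gene had overlapping groups. Il6 had the second largest rise of all named features, 2.26 ± 0.59 (adjusted p = 0.0257), but its LVT rats spanned 8.10 to 10.85 and met the HVT range of 10.59 to 12.79. It did not pass without HVT rats 11 or 26 or LVT rats 20 or 18 (adjusted p = 0.056 to 0.071). In the interleukin 10 family, Il24 and Il19 rose. Il24 lay at 8.61, 9.52 and 10.42 in HVT and at 7.80, 7.87 and 8.25 in LVT (difference 1.59), and Il19 at 8.21, 8.40 and 8.85 against 8.06, 8.10 and 8.16 (0.37 ± 0.09, adjusted p = 0.0193). Il24 in HVT thus spread over a wider range than in LVT, with rats 28 and 37 highest.

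**Figure D2:**
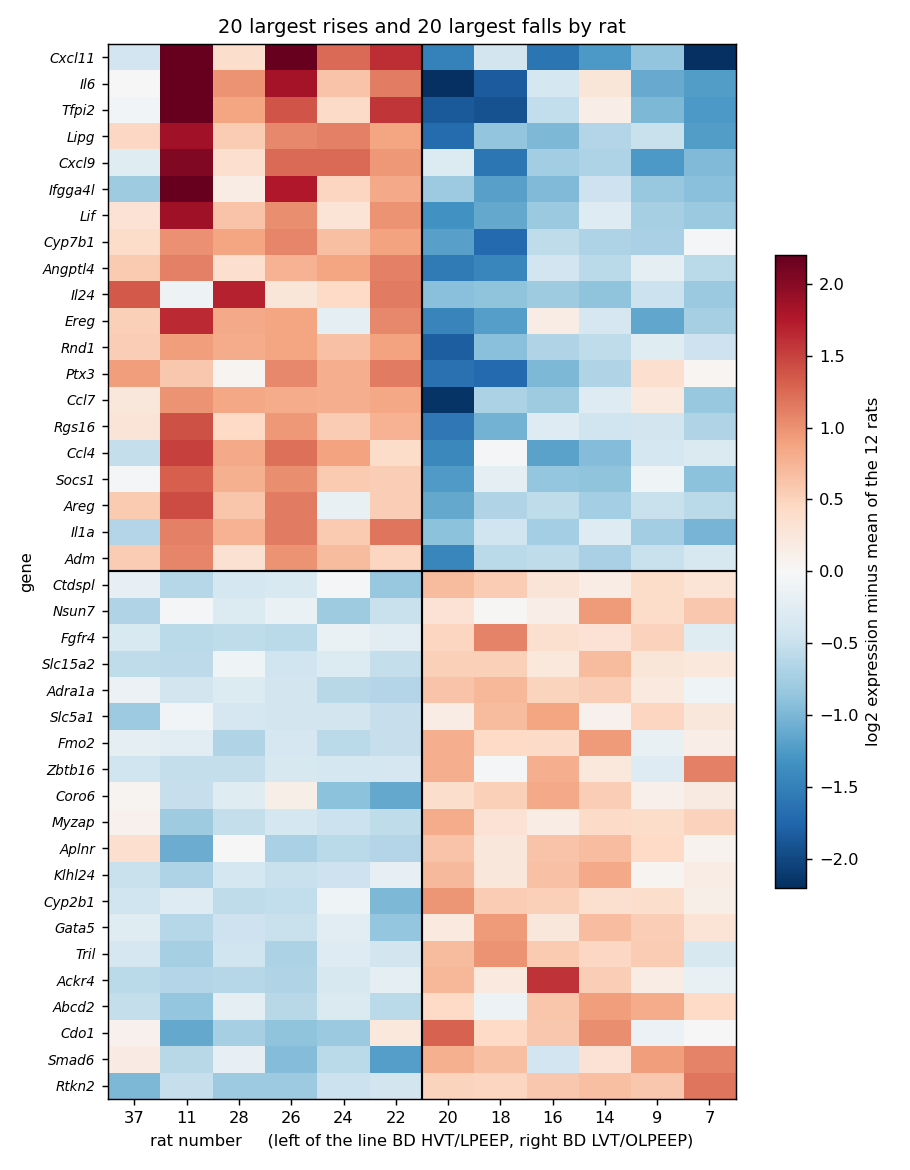
Values of the 20 largest rises and 20 largest falls in each of the 12 rats (columns, HVT/LPEEP left of the line), as log2 expression minus the mean of the 12 rats, with colour capped at 2.2 in either direction. Rat 11 has the deepest red among the HVT rats and rat 37 is near 0 for several chemokine and cytokine genes, while rat 20 has the deepest blue among the LVT rats.

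The tumour necrosis factor superfamily contributed mainly receptors. Of 35 measured members 7 were higher and 0 lower (median 0.15). Tnfrsf9 (4-1BB, a costimulator of T cells) lay at 9.08, 9.51 and 9.75 in HVT and at 8.35, 8.49 and 8.72 in LVT (0.96 ± 0.17, adjusted p = 0.00296). Tnfrsf12a, the receptor of the cytokine TWEAK, lay at 11.41, 11.80 and 11.96 against 10.59, 10.73 and 11.32 (0.94 ± 0.17, adjusted p = 0.00422), and Ngfr, the low-affinity neurotrophin receptor, at 9.03, 9.24 and 9.40 against 8.59, 8.74 and 8.82 (0.49 ± 0.08, adjusted p = 0.00165). All 3 receptors had groups that did not overlap. In NBD the mean difference was 0.75 for Tnfrsf12a and 0.15 for Ngfr.

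NF-kappaB is formed by subunits of which Nfkb1 encodes p50 and its precursor. Of 27 subunits, adaptors and feedback inhibitors 3 were higher and 0 lower, while 24 lay above 0 (median 0.28). Nfkb1 lay at 11.76, 11.94 and 12.13 in HVT and at 11.40, 11.51 and 11.58 in LVT (0.45 ± 0.09, adjusted p = 0.00589), with no overlap. Malt1, a protease and scaffold that relays antigen receptor signals to NF-kappaB, lay at 11.49, 12.07 and 12.37 against 10.52, 10.99 and 11.38 (0.95 ± 0.19, adjusted p = 0.006), also apart. Birc2, a ubiquitin ligase of the TNF receptor complex, was higher by 0.56 ± 0.10 (adjusted p = 0.0037). In NBD, Nfkb1 differed by -0.09 and Birc2 by 0.00. With HVT rat 37 left out, or NBD HVT/LPEEP rat 12, 5 members of the list were called.

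Interferon-stimulated genes, which cells transcribe on sensing type I or type II interferon, had the largest median of all 77 lists, but most members did not pass. The lists were drawn up with earlier results of these data known, so ranks among them only describe. All 30 measured members lay above 0, with a median of 0.92, and 3 were called. Socs1, a feedback inhibitor of JAK kinases, lay at 10.63, 11.35 and 11.98 in HVT and at 9.42, 9.79 and 10.57 in LVT (1.40 ± 0.29, adjusted p = 0.00776), with groups apart. Igtp, an interferon-induced GTPase, differed by 1.10 ± 0.31 (adjusted p = 0.0406) and Ifi35 by 0.64 ± 0.17 (adjusted p = 0.027), both with overlapping groups. Isg15, the ubiquitin-like antiviral modifier, and Mx1, an antiviral GTPase, are given as examples added after their values were seen. Isg15 lay at 10.55, 12.47 and 13.02 in HVT against 10.10, 11.24 and 11.76 (1.21 ± 0.44, adjusted p = 0.111) and Mx1 at 9.53, 11.35 and 13.21 against 9.43, 9.76 and 10.70 (1.58 ± 0.55, adjusted p = 0.0893).

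The list mean of 1 HVT rat lay within the LVT range. HVT rat 37 had a list mean of -0.77 relative to the 12 BD rats, whereas the other 5 HVT rats lay at 0.27 (rat 24), 0.47 (rat 28), 0.51 (rat 22), 0.86 (rat 26) and 1.37 (rat 11). The 6 LVT rats lay between -0.79 and -0.15. Without rat 37, 22 of the 30 were called higher, and 15 were without NBD LVT/OLPEEP rat 30. Leaving out any 1 of HVT rats 11, 24 and 22 or LVT rats 20 and 16 left 1 of the 3 calls. Igtp no longer passed without any 1 of HVT rats 11, 28, 26, 24 and 22 or of LVT rats 20, 18, 16, 14 and 7 (adjusted p = 0.052 to 0.098), and Ifi35 without HVT rats 11, 24 or 22 or LVT rats 20 or 16 (adjusted p = 0.059 to 0.069). In NBD the median of the list was -0.19 and 8 of 30 members lay above 0, but without NBD LVT/OLPEEP rat 30 the median was 0.06 and 18 lay above 0. That rat had a list mean of 1.08, and the other 5 of its group lay between -0.90 and -0.18. The difference between both ventilation effects was not called for any of these genes.

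Further genes of cytokine signalling and antigen presentation were called. Ubd, a ubiquitin-like protein induced by both interferon gamma and TNF and named here after its values were seen, lay at 9.00, 9.96 and 10.24 in HVT and at 8.61, 8.71 and 9.13 in LVT (1.05 ± 0.22, adjusted p = 0.00899), with an overlap. Jak2, a kinase of cytokine receptors, lay at 12.06, 12.36 and 12.60 against 11.27, 11.63 and 12.07 (0.72 ± 0.15, adjusted p = 0.00727), with 1 overlapping pair of rats, and differed by -0.31 in NBD. Of 20 genes of class I and class II histocompatibility and antigen processing 2 were higher (4 without NBD HVT/LPEEP rats 12 or 19, and 0 without HVT rats 11 or 26), the peptide transporter subunit Tap1 (0.85 ± 0.21, adjusted p = 0.0217) and Tapbp. Neither passed without HVT rats 11 or 26 or LVT rat 20, and Tapbp was also lost without HVT rats 24 or 22 or LVT rats 16 or 14 (adjusted p = 0.051 to 0.095 over both genes). Toll-like and other pattern receptors had a median of 0.27, and 0 of 19 passed limma's test (6 higher and 2 lower at an unadjusted p under 0.05), 5 without HVT rat 37 and 3 without NBD LVT/OLPEEP rat 30.

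**Figure D3:**
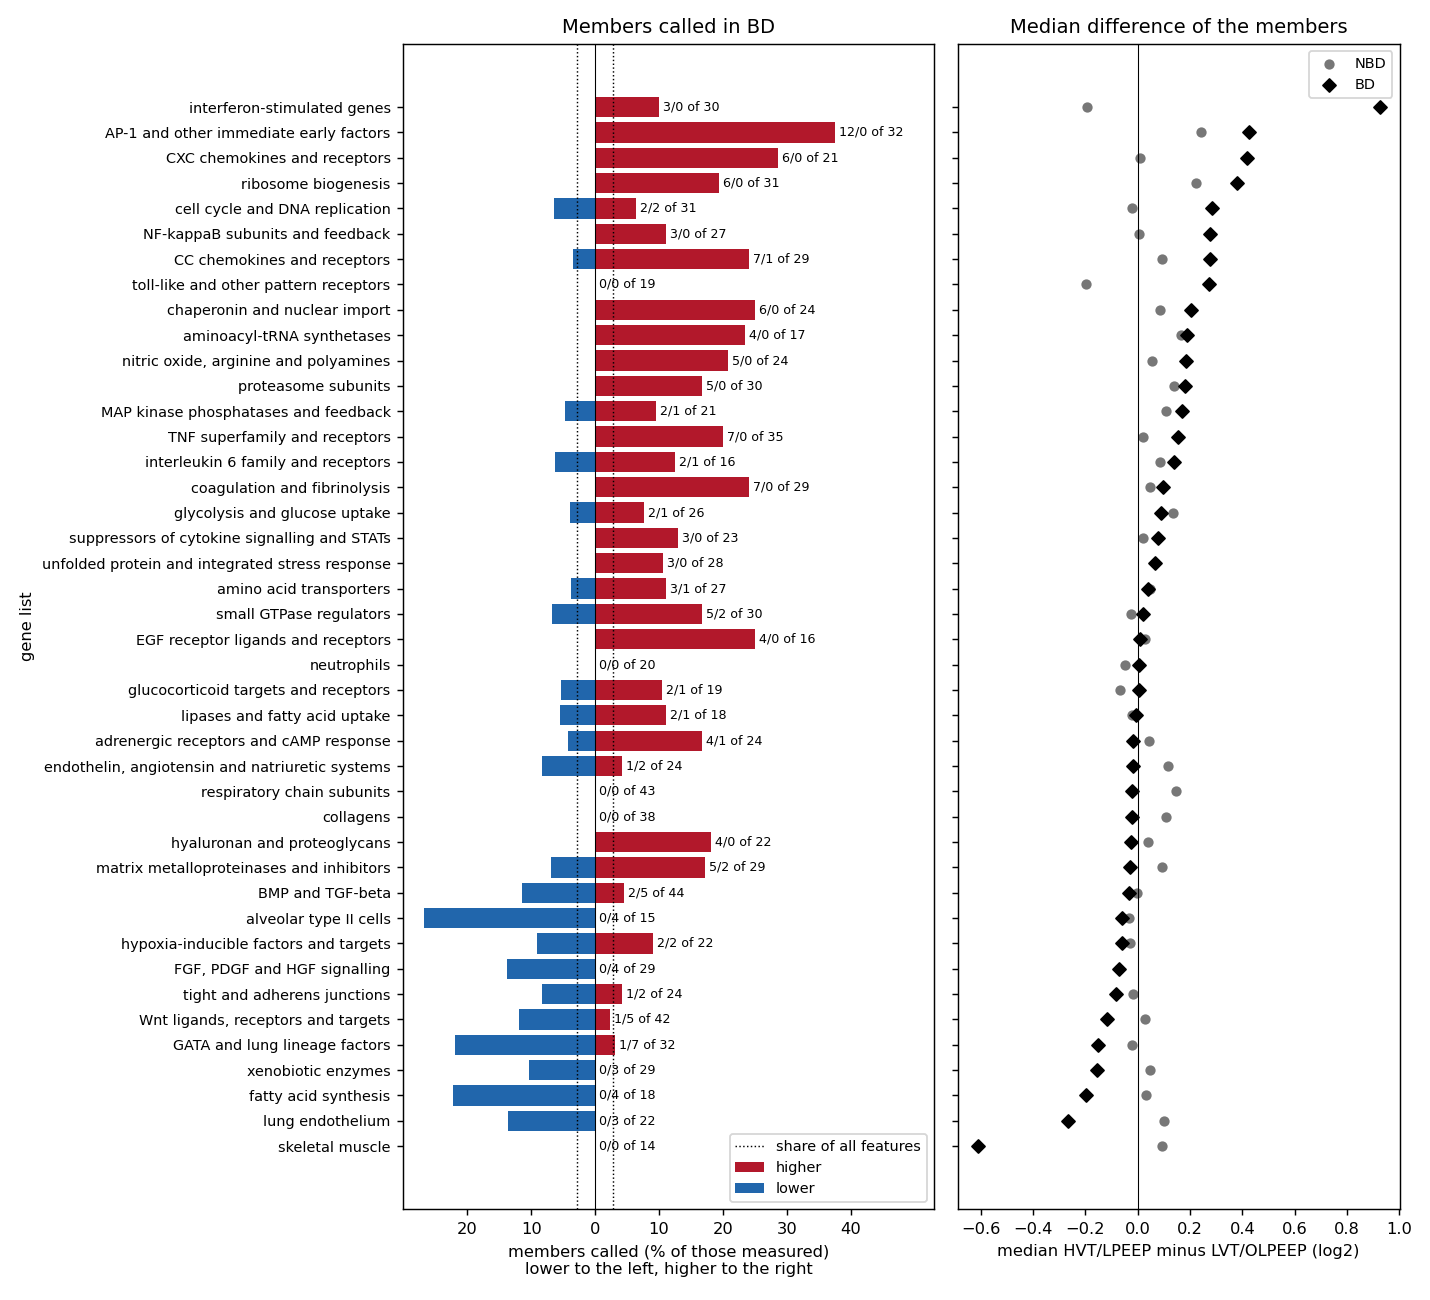
Share of each list's measured members called higher (right) or lower (left) in BD HVT/LPEEP, with counts beside the bars and the share of all features as dotted lines, and the median difference of the members in BD (diamonds) and NBD (circles) on the log2 scale. Lists with at least 3 called members are shown together with 5 others; the interferon-stimulated genes have the largest median (0.92), but 3 of 30 called, and the immediate early factors the largest share (12 of 32).

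Immediate early factors are transcribed within minutes of growth factor, stretch or stress signals. Of 32 measured members 12 were higher and 0 lower, with 28 above 0 and a median of 0.43. This was the largest share among the lists, which were drawn up with earlier results of these data known. Fosl1, an AP-1 subunit, lay at 10.53, 10.85 and 11.52 in HVT and at 9.05, 9.88 and 10.25 in LVT (1.19 ± 0.24, adjusted p = 0.00678). Nr4a3, an orphan nuclear receptor, lay at 9.58, 9.94 and 10.84 against 8.85, 9.05 and 9.61 (0.93 ± 0.19, adjusted p = 0.00695), with 1 overlapping pair, and Maff, a small bZIP factor, was higher by 0.72 (adjusted p = 0.0156). In the same list Egr2 rose by 1.06 ± 0.28 (adjusted p = 0.0254) and Myc by 0.78 ± 0.20 (adjusted p = 0.0217), both without overlap. Egr2 was lost without HVT rats 11 or 28 or LVT rat 20 and Myc without HVT rat 28 or LVT rats 20 or 18 (adjusted p = 0.05 to 0.065). The count of 12 was 3 without LVT rat 20, 4 without HVT rat 28, 5 without HVT rat 11, 6 without HVT rat 26, and 7 without LVT rats 18 or 16. LVT rat 20 had the lowest list mean of the 12 rats, -0.55, and the next LVT rat -0.22. In NBD 29 of the 32 lay above 0 (median 0.24) and Fosl1 differed by 0.72.

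EGF receptor signalling repairs epithelium, and its ligands are known to be released on stretch. Of 16 measured ligands and receptors 4 were higher and 0 lower, although the list median was 0.01 and 8 lay above 0. At an unadjusted p under 0.05 in limma's test, 6 were higher and 3 lower. Areg lay at 9.52, 10.27 and 11.12 in HVT and at 8.56, 9.05 and 9.19 in LVT (1.39 ± 0.24, adjusted p = 0.00258). Hbegf, heparin-binding EGF-like growth factor, lay at 9.97, 10.45 and 10.98 against 8.86, 9.55 and 9.65 (1.03 ± 0.20, adjusted p = 0.00553), and Ereg, epiregulin, at 9.92, 10.97 and 11.76 against 8.66, 9.19 and 10.27 (1.58 ± 0.32, adjusted p = 0.00655). Areg and Hbegf had groups apart, and in Ereg 1 pair of rats overlapped. The receptor itself, Egfr, lay at 10.18, 10.73 and 11.01 in HVT and at 9.82, 9.88 and 10.41 in LVT (0.68 ± 0.13, adjusted p = 0.00486), with 1 overlapping pair of rats. All 4 genes passed in each of the 24 fits that left out 1 rat. Areg and Hbegf had mean differences of 0.59 and 0.68 in NBD. Targets of the stretch-responsive factors YAP and SRF held 2 higher and 0 lower of 26 measured (median 0.04, and 0.16 in NBD). The count of 2 was 1 without HVT rats 11 or 28 or LVT rats 20 or 18. Stretch-gated channels held 1 higher and 1 lower of 14 (median -0.02).

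Other signalling genes were among the most separated. Rcan1, a calcineurin inhibitor, lay at 11.34, 11.53 and 11.73 in HVT and at 10.21, 10.65 and 10.77 in LVT (0.97 ± 0.14, adjusted p = 0.000832). Adm, the vasodilator peptide adrenomedullin, lay at 11.39, 11.68 and 12.14 against 9.62, 10.49 and 10.70 (1.38 ± 0.27, adjusted p = 0.0056). Neither of them overlapped between the groups, and they differed by 0.67 and 0.73 in NBD. Il2ra, the high-affinity interleukin 2 receptor chain, was higher by 0.79 ± 0.11 (adjusted p = 0.000746), and Fst, which binds activin, lay at 9.31, 9.40 and 9.77 against 8.49, 8.63 and 8.76 (0.84 ± 0.10, adjusted p = 0.000341).

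The coagulation genes that rose included the initiator of the cascade and one of its inhibitors. Of 29 measured members 7 were higher and 0 lower (median 0.10), and 4 were without LVT rat 20. F3, tissue factor, lay at 12.97, 13.42 and 13.55 in HVT and at 11.96, 12.46 and 13.03 in LVT (0.89 ± 0.16, adjusted p = 0.0037), with 1 overlapping pair. F10, factor X, lay at 8.44, 9.40 and 10.23 against 8.10, 8.32 and 8.49 (0.95 ± 0.23, adjusted p = 0.0161), and F2rl1, protease-activated receptor 2, at 9.62, 9.90 and 9.98 against 8.95, 9.28 and 9.53 (0.56 ± 0.11, adjusted p = 0.00678). The largest difference of the list was in Tfpi2. It lay at 10.28, 11.46 and 12.57 in HVT and at 8.42, 9.22 and 10.49 in LVT (2.13 ± 0.40, a 4.38-fold difference, adjusted p = 0.00467), with an overlap. In NBD, F10 differed by -0.07 and F2rl1 by 0.38.

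**Figure D4:**
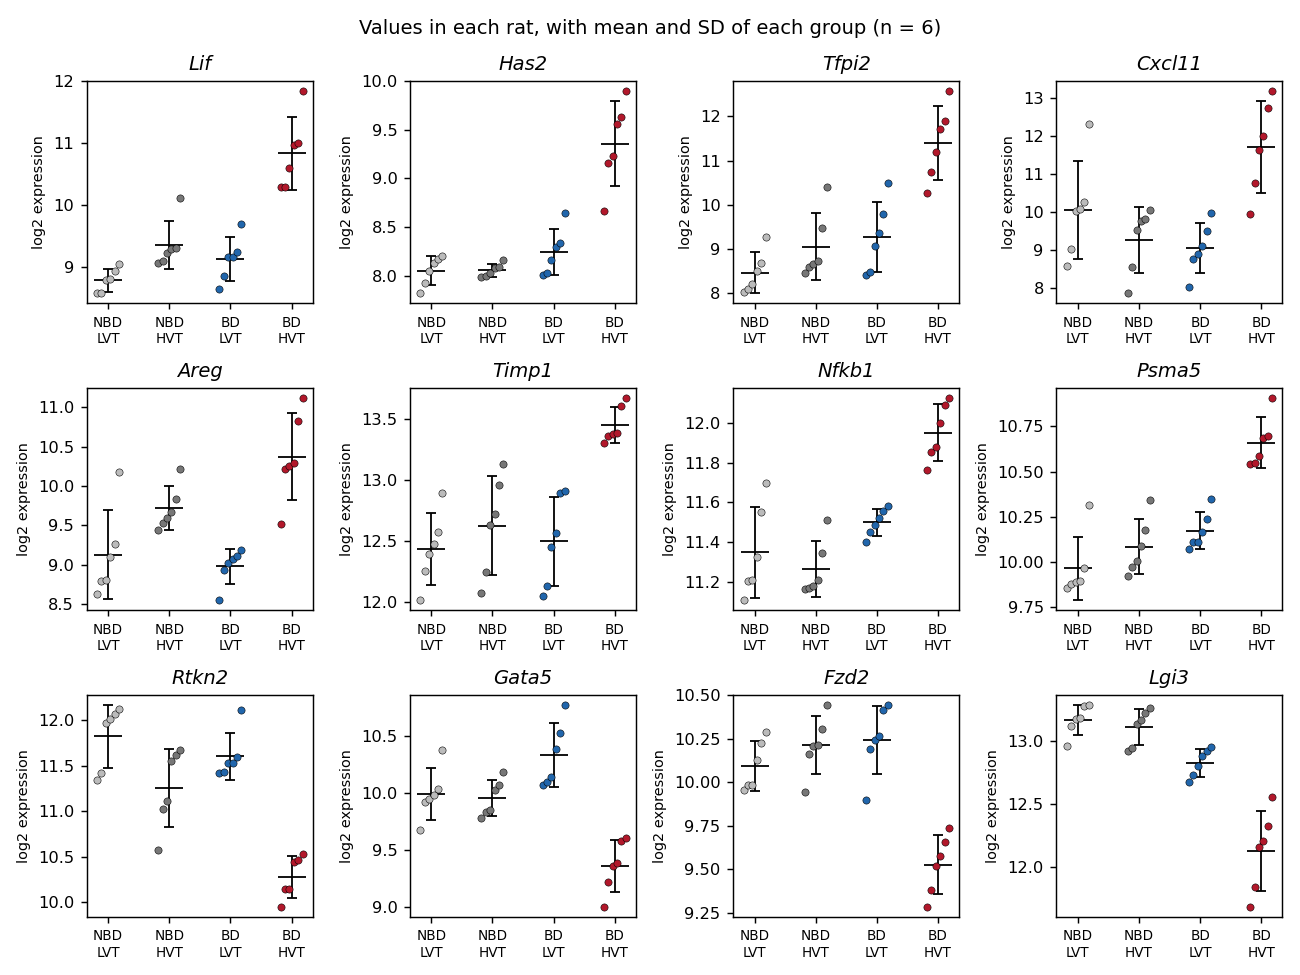
Log2 expression of 12 genes in each of the 24 rats, with mean and SD of each group (n = 6). For Has2 and Lif every BD HVT/LPEEP rat lies above the 3 other groups, and for Rtkn2, Gata5, Fzd2 and Lgi3 every one lies below them. For Cxcl11 the highest NBD LVT/OLPEEP rat reaches the upper part of the BD HVT/LPEEP range.

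Among matrix genes the calls fell on remodelling enzymes and their inhibitors. Of 38 collagens 0 passed in limma's test (1 higher and 5 lower at an unadjusted p under 0.05), with a median of -0.02. Of 29 metalloproteinases and inhibitors 5 were higher and 2 lower, and the counts were 3 to 5 and 1 without any 1 of HVT rats 11, 28, 26 and 22 or LVT rats 20, 18 and 9. Timp1, which inhibits metalloproteinases, lay at 13.30, 13.38 and 13.67 in HVT and at 12.05, 12.50 and 12.91 in LVT (0.95 ± 0.18, adjusted p = 0.00435). Mmp19, a metalloproteinase of basement membranes, lay at 10.39, 10.59 and 11.07 against 9.36, 9.47 and 9.71 (1.18 ± 0.17, adjusted p = 0.000934). Neither overlapped. The aggrecanase relative Adamts1 was higher by 0.60 ± 0.12 (adjusted p = 0.00549), and Adamts15 differed by -0.69 (adjusted p = 0.018).

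Hyaluronan is the glycosaminoglycan whose fragments accumulate in strained lungs. Of 22 genes of hyaluronan and proteoglycans 4 were higher and 0 lower, and 2 were without HVT rat 22 or LVT rats 20 or 18. Has2, the main hyaluronan synthase of mesenchymal cells, lay at 8.66, 9.40 and 9.90 in HVT and at 8.01, 8.23 and 8.65 in LVT (1.11 ± 0.14, adjusted p = 0.000341), apart by a narrow margin. In NBD the difference was 0.01. Sdc4, the heparan sulphate proteoglycan syndecan 4, lay at 12.70, 12.99 and 13.15 against 11.75, 12.24 and 12.45 (0.77 ± 0.16, adjusted p = 0.00823). Has1 (0.70 ± 0.18) and Ptx3 (1.53 ± 0.43), a pattern receptor that crosslinks hyaluronan, were the other called members. Has1 was lost without HVT rat 22 or LVT rats 20 or 18 (adjusted p = 0.054 to 0.059), and Ptx3 without any 1 of HVT rats 37, 11, 26, 24 and 22 or LVT rats 20, 18, 16 and 14 (adjusted p = 0.052 to 0.097).

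Some enzymes of arginine, prostaglandin and lipid mediators rose. Of 28 genes of prostaglandins and leukotrienes 2 were higher and 0 lower (median 0.004, 15 above 0). Of 19 oxysterol and liver X receptor genes 2 were higher and 0 lower (median -0.07, 7 above 0). Of 18 genes of lipases and fatty acid uptake 2 were higher and 1 lower (median -0.01, 8 above 0). When 1 rat was left out, 1 to 3 prostaglandin and 1 or 2 oxysterol genes were higher. Arg1, arginase 1, lay at 9.31, 9.64 and 10.45 in HVT and at 8.48, 8.65 and 9.26 in LVT (0.98 ± 0.17, adjusted p = 0.00343), with groups apart. Gch1, which makes the cofactor of nitric oxide synthases, was higher by 0.81 ± 0.17 (adjusted p = 0.00724), with an overlap. Of 24 genes of nitric oxide, arginine and polyamines 5 were higher and 0 lower, and 2 or 3 were without HVT rat 28 or LVT rats 20, 18 or 16. Ptgs2, cyclooxygenase 2, lay at 10.07, 10.81 and 10.99 against 8.94, 9.39 and 10.42 (1.13 ± 0.23, adjusted p = 0.0074), with an overlap. Lipg, endothelial lipase, which hydrolyses phospholipids of high-density lipoprotein, lay at 10.80, 11.31 and 12.19 against 8.65, 9.42 and 9.85, and Angptl4, an inhibitor of lipoprotein lipase, at 10.97, 11.42 and 11.72 against 9.05, 10.01 and 10.41. Cyp7b1, the oxysterol hydroxylase, lay at 10.78, 11.24 and 11.44 against 8.66, 9.67 and 10.34. Groups of all 3 lay apart. Ch25h, which makes the 25-hydroxycholesterol that Cyp7b1 degrades, was higher by 0.99 ± 0.26 (adjusted p = 0.0266), and not without HVT rats 11 or 28 or LVT rats 20 or 18 (adjusted p = 0.054 to 0.075).

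Ribosome biogenesis genes, which build the ribosome in the nucleolus, had differences of the same sign. All 31 measured genes of ribosome biogenesis lay above 0 (median 0.38), and 6 were called. Rrs1, a ribosome assembly factor, lay at 9.00, 9.14 and 9.42 in HVT and at 8.47, 8.66 and 8.97 in LVT (0.45 ± 0.09, adjusted p = 0.00678). The count of 6 was 15 without LVT rat 7 and 1 without HVT rat 28 or LVT rat 20, with 2 or 3 without HVT rats 22 or 26 or LVT rats 18 or 16. In 1 LVT rat, number 7, the list mean (0.19) lay within the HVT range of 0.10 to 0.43. The NBD median of the list was 0.22, with 25 of 31 above 0. Of 19 ribosomal protein genes limma called 0 (also 0 at an unadjusted p under 0.05, with 13 above 0 and a median of 0.05), and of 43 respiratory chain subunits 0 (2 higher and 2 lower at an unadjusted p under 0.05), the latter with a median of -0.02.

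Proteasome, chaperonin, nuclear import and aminoacyl-tRNA synthetase genes also held small rises. Of 30 proteasome subunits 29 lay above 0 (median 0.18) and 5 were called, 9 without HVT rat 11. Psma5, a subunit of the catalytic core, lay at 10.54, 10.64 and 10.91 in HVT and at 10.07, 10.14 and 10.35 in LVT (0.49 ± 0.08, adjusted p = 0.00256). Nup54, a nuclear pore protein, lay at 10.15, 10.31 and 10.41 against 9.69, 9.81 and 10.06 (0.47 ± 0.09, adjusted p = 0.00422). Of 24 chaperonin and import genes 6 were higher and 0 lower, and 2 were without any 1 of HVT rats 28, 24 and 22 or LVT rats 20, 18, 16 and 14. Of 17 synthetases 4 were higher and 0 lower, including Kars1 for lysine (0.36 ± 0.07, adjusted p = 0.00597) and Tars1 for threonine (0.46 ± 0.09, adjusted p = 0.00655), with groups apart in both.

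Among the lower genes were markers of alveolar epithelium and factors of lung lineage. Rtkn2, a marker of type I cells, had the largest fall of all named features. It lay at 9.95, 10.29 and 10.53 in HVT and at 11.42, 11.53 and 12.11 in LVT (-1.33 ± 0.18, or 2.51-fold lower, adjusted p = 0.000444), and the difference in NBD was -0.57. Emp2, a membrane protein of type I cells, lay at 11.94, 12.02 and 12.17 against 12.19, 12.37 and 12.51 (-0.33 ± 0.06, adjusted p = 0.00527). In the list of 15 type I markers 2 genes fell, 6 without NBD HVT/LPEEP rat 12, and 3 of 15 lay above 0 (median -0.21). At an unadjusted p under 0.05 in limma's test, 8 were lower and 2 higher, and 1 was called higher with cyclic loess or array weights. The list means of the HVT rats (-0.26 to -0.04) and of the LVT rats (0.06 to 0.27) did not overlap. In whole lung, fewer cells of a type and less RNA per cell cannot be told apart.

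Type II cells make surfactant. Of 15 markers 4 were lower and 0 higher, with a median of -0.06. Lgi3, a secreted protein of these cells, lay at 11.69, 12.19 and 12.55 in HVT and at 12.68, 12.84 and 12.95 in LVT (-0.69 ± 0.11, adjusted p = 0.00119). Abca3, the lipid pump of lamellar bodies, lay at 11.13, 11.40 and 11.58 against 11.51, 11.86 and 12.08 (-0.44 ± 0.09, adjusted p = 0.00692), with an overlap. Their master regulator Nkx2-1 lay at 10.34, 10.73 and 11.05 against 10.97, 11.19 and 11.40 (-0.46 ± 0.10, adjusted p = 0.0108). Sftpb did not pass (-0.18 ± 0.06, adjusted p = 0.0972), nor did Sftpc (-0.01 ± 0.04, adjusted p = 0.947), which was close to the top of the measured range.

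Of 32 GATA and lung lineage factors 7 were lower and 1, the epithelial factor Elf3, was higher (0.86, adjusted p = 0.0317), with a median of -0.15. Gata5, a zinc finger factor, lay at 9.01, 9.38 and 9.61 in HVT and at 10.07, 10.27 and 10.78 in LVT (-0.97 ± 0.13, adjusted p = 0.000341). Gata2, a factor of endothelium and mast cells, lay at 9.69, 10.20 and 10.32 against 10.44, 10.75 and 11.01 (-0.60, adjusted p = 0.00952). Both were wholly separated. Tbx2, a T-box factor of lung mesenchyme, differed by -0.67 ± 0.15 (adjusted p = 0.0109), and Etv5, a factor of type II cells downstream of FGF signals, differed by -0.57 ± 0.13 (adjusted p = 0.0145). In NBD, Tbx2 differed by 0.01 and Etv5 by -0.14. Elf3 was lost without any 1 of HVT rats 11, 28, 24 and 22 or LVT rats 20, 18 and 16 (adjusted p = 0.054 to 0.078).

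Growth factor pathways that maintain alveoli also held lower genes. Of 42 Wnt ligands, receptors and targets 5 were lower and 1, the secreted Dkk3, was higher (0.29, adjusted p = 0.0385, and 0.053 to 0.089 without any 1 of HVT rats 37, 26, 24 and 22 or LVT rats 20, 16, 14, 9 and 7), with a median of -0.12. Fzd2, a Wnt receptor, lay at 9.29, 9.55 and 9.73 in HVT and at 9.90, 10.25 and 10.45 in LVT (-0.72 ± 0.10, adjusted p = 0.000397), and Wnt3a, a ligand, at 8.93, 9.07 and 9.23 against 9.26, 9.35 and 9.56 (-0.30 ± 0.06, adjusted p = 0.00597). Both had groups apart. The number lower was 3 without HVT rats 28 or 22 or LVT rats 18, 16 or 9, and 10 without NBD HVT/LPEEP rat 12. Fgfr2, the epithelial receptor of mesenchymal FGFs, lay at 11.20, 11.64 and 11.75 against 12.04, 12.16 and 12.32 (-0.64 ± 0.13, adjusted p = 0.00686), and Fgfr4 differed by -0.82 (adjusted p = 0.0136). Of 29 genes of FGF, PDGF and HGF signalling 4 were lower and 0 higher.

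In the BMP and TGF-beta list 5 of 44 members were lower and 2 higher (median -0.03, 21 above 0). These shares, 11.4% and 4.55%, compare with 2.82% and 2.85% of all features. Smad6, which inhibits BMP signalling and is induced by it, lay at 9.62, 10.21 and 11.00 in HVT and at 10.41, 11.54 and 11.92 in LVT (-1.12 ± 0.29, adjusted p = 0.0244). It overlapped and was lost without HVT rats 26 or 22 or LVT rats 20, 18 or 9 (adjusted p = 0.051 to 0.062). Bmp1, a procollagen protease despite its name, lay at 10.65, 11.36 and 11.68 against 11.84, 12.03 and 12.16 (-0.79 ± 0.20, adjusted p = 0.0204, and 0.052 without HVT rat 22). The higher members were Fst, given above, and Tgif1, a repressor of TGF-beta targets (0.54). Without single BD rats, 1 to 3 members were lower when HVT rats 11, 26 or 22 or LVT rats 20, 18 or 9 were left out, and 4 were higher without HVT rats 37 or 22 or NBD HVT/LPEEP rat 12.

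Every endothelial marker measured had a lower mean in HVT. Of 22 markers of lung endothelium 0 lay above 0 (median -0.27) and 3 were called lower, 1 without HVT rat 26 or LVT rat 20 and 6 without NBD HVT/LPEEP rat 12. Aplnr, the apelin receptor, lay at 9.62, 10.10 and 11.09 in HVT and at 10.80, 11.25 and 11.39 in LVT (-0.89 ± 0.20, adjusted p = 0.0103), with HVT rat 37 inside the LVT range. Ramp2, the adrenomedullin coreceptor, lay at 9.80, 10.60 and 10.80 against 10.81, 11.07 and 11.28 (-0.64 ± 0.18, adjusted p = 0.04), the opposite direction to its ligand gene Adm. Ramp2 was lost without HVT rats 11, 28 or 26 or LVT rats 20, 18 or 9 (adjusted p = 0.063 to 0.098). In NBD the median of these markers was 0.10 and 15 of 22 lay above 0.

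Some enzymes of lipid synthesis and detoxification were lower. Of 18 genes of fatty acid synthesis 4 were lower and 0 higher (median -0.20), and 2 were without HVT rat 11 or LVT rat 18. Scd2, a stearoyl-CoA desaturase, lay at 11.88, 11.95 and 12.51 in HVT and at 12.45, 12.62 and 12.96 in LVT (-0.61 ± 0.12, adjusted p = 0.00678), with 1 overlapping pair. Gpam, the first enzyme of glycerolipid synthesis, differed by -0.45 ± 0.10 (adjusted p = 0.0139). Of 29 xenobiotic enzymes 3 were lower and 0 higher. Cyp2b1, a major cytochrome P450 of rat lung, lay at 10.85, 11.35 and 11.74 against 11.97, 12.29 and 12.81 (-0.97 ± 0.20, adjusted p = 0.00715), and Fmo2, a flavin monooxygenase of club cells, at 11.90, 12.12 and 12.36 against 12.39, 12.98 and 13.48 (-0.86 ± 0.18, adjusted p = 0.00724). Both pairs of groups were apart. Abcd2, a peroxisomal transporter of very long fatty acids, lay at 7.88, 8.18 and 8.52 against 8.63, 9.26 and 9.65 (-1.04 ± 0.19, adjusted p = 0.00422).

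The lower genes with the smallest p were mostly of moderate size and belonged to no shared list. Arrb1, beta-arrestin 1, which turns off adrenergic and other receptors, lay at 11.23, 11.47 and 11.64 in HVT and at 11.86, 12.10 and 12.29 in LVT (-0.66 ± 0.08, adjusted p = 0.000341). Trim3, a ubiquitin ligase, lay at 10.70, 10.78 and 10.90 against 11.07, 11.25 and 11.37 (-0.46 ± 0.06, adjusted p = 0.000341). Hdac11, a histone deacetylase family member, differed by -0.28 ± 0.04 (adjusted p = 0.000934), the smallest change of those named by p. In each of them the groups were apart. Adra1a and Tef were also lower, but not among the 10 smallest p. Adra1a, the alpha-1A adrenergic receptor, differed by -0.83 ± 0.20 (adjusted p = 0.0165), and Tef, a clock-controlled factor, by -0.67 (adjusted p = 0.0119). Of 24 genes of adrenergic receptors and cAMP response, Adra1a was the 1 lower and 4 were higher (median -0.02). The count of 4 was 1 without HVT rat 11 or LVT rats 20 or 18.

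Hardly any marker of blood or inflammatory cells was called. Of 20 neutrophil markers limma called 0 (median 0.01, and 0 at an unadjusted p under 0.05), of 17 macrophage markers 0 (median 0.15, 4 higher at an unadjusted p under 0.05) and of 23 lymphocyte and NK cell markers 0 (median 0.22, 2 higher at an unadjusted p under 0.05). With animal number as a covariate these medians were 0.24, 0.02 and 0.05, and 2 macrophage markers were called higher. Without HVT rat 37, 1 macrophage marker and 1 lymphocyte or NK cell marker were called higher. Platelet markers lay above 0 in 11 of 11 members (median 0.32, and 0.43 in NBD). The 1 called was the chemokine Pf4 (0.43, adjusted p = 0.039), which was lost without any 1 of HVT rats 11, 26, 24 and 22 or LVT rats 20, 16, 9 and 7 (adjusted p = 0.058 to 0.091). Of 14 skeletal muscle markers 0 were called (also 0 at an unadjusted p under 0.05), and their median of -0.61 was 0.01 without LVT rat 16. Cardiac muscle markers were highest in HVT rat 37 (list mean 1.87), the rat with the low interferon-stimulated mean. Their part in the results was not tested.

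**Figure D5:**
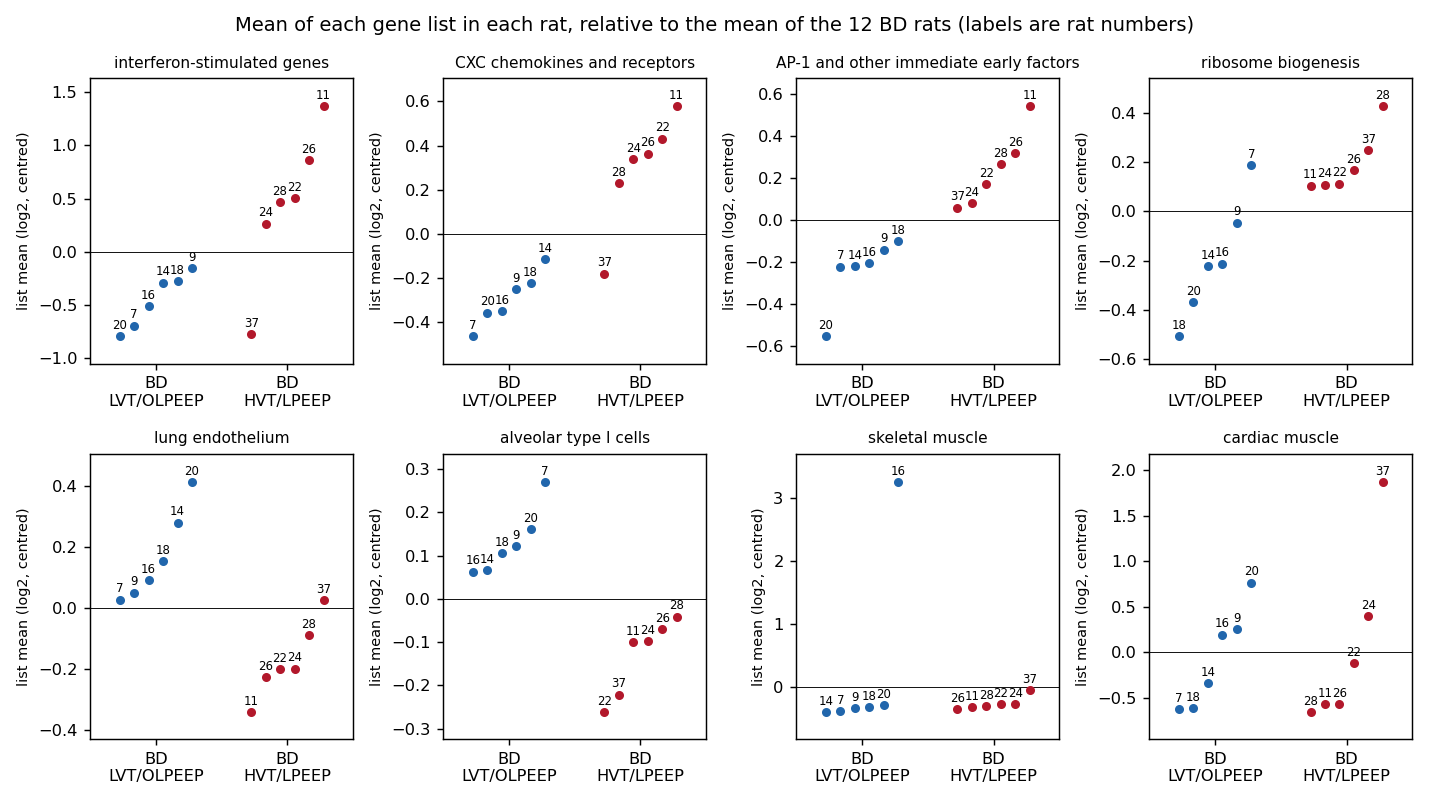
Mean of 8 gene lists in each of the 12 BD rats, relative to the mean of the 12 (log2), with rat numbers beside the points. The interferon-stimulated genes of HVT rat 37 (-0.77) lie with the LVT rats, the type I markers separate the groups without overlap, and skeletal muscle is high in LVT rat 16 only (3.26).

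Set beside the same change of ventilation without BD, most called features had a mean difference of the same sign in NBD, but a small one. Of the higher features 74.1% lay above 0 in NBD, where 56% of all features did, with a median of 0.11, and of the lower ones 65.5% lay below 0, with a median of -0.05. Both comparisons share no rats, but they share the estimate of the spread. In NBD limma called 0 features (smallest adjusted p = 0.0789, and 50 features with array weights), with 3127 at an unadjusted p under 0.05 against 4040 in BD. The difference of the ventilation effects itself passed for 2 features (0.0104%), Fzd2 (-0.72 in BD, 0.12 in NBD) and Trim3 (-0.46 in BD, 0.02 in NBD), each with an adjusted p = 0.0455, and 2629 features had an unadjusted p under 0.05. Fzd2 passed in 6 and Trim3 in 5 of the 24 fits that left out 1 rat, and 17 of these fits called 0 features. Cyclic loess, trended and robust eBayes and Holm's correction also called 0, whereas 134 were called without HVT rat 37 and 149 with animal number as a covariate. For every other gene named here the difference of the ventilation effects was not called.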

How the data were processed

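Lung RNA of 24 rats was measured on Affymetrix arrays, 1 array per rat. The authors deposited 1 log2 expression value per feature and array, and the identical sorted values of all 24 arrays show that these had been quantile-normalized. For the background correction and the probe summary, the sources used here give nothing. Values were used as deposited, all 24 columns matched a sample by its label, and 0 columns of no sample were found. Scanner files were not used here, so signal over background is unknown, and the number of rats limits the precision. P-values set each difference against the spread between rats within groups, pooled over all 4 groups and moderated by limma.

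Of 19239 features 16592 had 1 symbol in the platform annotation, 0 several and 2647 none. The annotation can be old, so 3333 symbols were updated through the gene identifier in a current rat table, where 16453 identifiers were found.

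In R 4.3.3, limma 3.58.1 (lmFit, eBayes) was fitted to 4 group means over all 24 arrays (20 residual degrees of freedom, two-sided tests, Benjamini-Hochberg adjustment over 19239 features, threshold 0.05). In the study's methods a log-linear mixed ANOVA model was used with Holm's correction, which was one alternative here. The 77 gene lists, 1667 of whose 1867 genes were measured, and the comparison itself were chosen with earlier results of these data known. A gene is counted in every list that holds it. Named genes are the 20 largest rises and 20 largest falls among called features with a symbol, the 10 smallest p in each direction, up to 6 called members of each list by p and members called against the list's direction, lung markers, and features called in the difference of ventilation effects. Promoters came from RefSeq (GRCr8), with the first listed start used for genes with several. NF-kappaB, AP-1, CRE, interferon response, GC box and 3 further motifs were searched on both strands. Tables and figures were made in Python 3.11.15 with pandas 2.3.3 and matplotlib 3.10.9.

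Alternatives were cyclic loess between arrays, leaving out the 40% dimmest features, only the 12 BD arrays, trended and robust eBayes, array weights, Holm's correction, animal number as a covariate, a 1.5-fold minimum, and leaving out each rat or each pair of BD HVT/LPEEP rats, since the 2 non-survivors are not identified.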

Additional observations from a re-analysis of the deposited data

Results flagged for a closer look

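Each value below lay far from the other 5 rats of its group, by the gap to the nearest rat relative to the range of the group. Chance flags about 1 in 20 groups. Of 154 list means 10 were flagged, and of 112 pairs of gene and group 7. List means are relative to the mean of the 12 BD rats, on the log2 scale.

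Among the BD HVT/LPEEP rats, number 37 stood apart in its list mean of skeletal muscle markers (-0.04, the next rat -0.27) and of endothelin, angiotensin and natriuretic genes (0.20, the next -0.01), and in the genes Ccl7 (11.47, the next rat 12.02) and Il1a (10.05, the next 11.27). Il1a, which encodes a cytokine released by injured epithelium, kept its call without any single rat. Rat 22 had the lowest mean of GATA and lung lineage factors (-0.35, the next -0.10), rat 28 the lowest mean of leukocyte adhesion genes (-0.16, the next 0.02) and the lowest Mindy1 (10.27, the next 10.37), and rat 11 the lowest mean of xenobiotic enzymes (-0.31, the next -0.12).

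Among the BD LVT/OLPEEP rats, number 16 had the highest mean of skeletal muscle markers (3.26, the next -0.28) and of respiratory chain subunits (0.14, the next 0.00). Rat 20 had the lowest mean of immediate early factors (-0.55, the next -0.22) and the lowest Adm (9.62, the next 10.35). In rat 9 the mean of mast cell markers (0.55, the next -0.06) and Il24 (8.25, the next 7.94) were highest. Rat 7 had the lowest mean of xenobiotic enzymes (-0.11, the next 0.09) and the highest Rtkn2 (12.11, the next 11.60), and rat 18 the lowest Hpf1 (8.28, the next 8.54).

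The ventilation effect differed between BD and NBD for Fzd2 (-0.84) and Trim3 (-0.48), by limma's test of the difference (adjusted p = 0.0455 for each).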

How the results depend on the processing

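All 208 named genes kept their direction under every alternative in which they were tested (196 of them without the 40% dimmest features). They had been picked by their calls in the same arrays, so a kept direction was likely beforehand. Of these genes 8 lost the call with cyclic loess, 2 without the 40% dimmest features, 47 with only the 12 BD arrays, 12 with trended and robust eBayes, 18 with array weights, 5 with animal number as a covariate and 187 with Holm's correction, and 92 were lost without at least 1 of the 24 rats, and 148 when rats of the BD HVT/LPEEP group were left out 2 at a time (15 pairs). In all of those 15 fits 92 higher and 66 lower features passed. The 1091 features called were 30 with Holm's correction (15 higher and 15 lower), 263 with a 1.5-fold minimum and 2122 with animal number as a covariate. The BD HVT/LPEEP rats were numbered 11, 22, 24, 26, 28 and 37 and the BD LVT/OLPEEP rats 7, 9, 14, 16, 18 and 20. Animal number thus went largely with ventilation, and their effects cannot be fully told apart. The calls were 602 to 1668 when 1 rat was left out. Leaving out each of 15 pairs of BD HVT/LPEEP rats gave 262 to 1233. Cyclic loess called 708 higher and 479 lower features, so that 59.6% of the calls were higher against 50.3%. The 2 features whose ventilation effect differed between BD and NBD were 0 with cyclic loess, trended and robust eBayes or Holm's correction, 1 without the dimmest features, 41 with array weights and 149 with animal number as a covariate. They were 0 to 134 when 1 rat was left out (134 without BD HVT/LPEEP replicate 37, 16 without BD LVT/OLPEEP replicate 14) and 0 to 266 for the pairs. The cause was not tested. No paired analysis was possible because the groups share no replicate numbers. The number of rats limits the precision, and called shares were smallest among the dimmest features.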

Other observations

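Some called genes of no list are given here, chosen after their values were seen. Higher in BD HVT/LPEEP were Slc26a4, the anion exchanger pendrin of airway epithelium (1.37), Rgs1, which dampens chemokine receptor signals (1.28), Noct, a deadenylase-related circadian protein (1.27), Cd69, an early activation marker of lymphocytes (1.11), the gap junction gene Gja1 (1.01), the tethered chemokine Cx3cl1 (0.84) and the epithelial keratin Krt8 (0.79). Also higher were Ripk3, a kinase of necroptosis (0.74), the epithelial cytokine Tslp (0.69), and the lymphocyte cytokines Ifng (0.60) and Il13 (0.56). Lower were the ceramidase gene Acer2 (-0.78), the growth factor Gas6, a ligand of TAM receptors (-0.75), Pcdh1, an adhesion protein of airway epithelium (-0.70), Spns2, which exports sphingosine 1-phosphate from endothelium (-0.61), and Thra, the thyroid hormone receptor alpha (-0.55).

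By chromosome, the largest shares of higher features were 5.71% of 508 on chromosome 14 and 5.01% of 998 on chromosome 2, against 2.85% of all features. The largest shares of lower features were 5.3% of 453 on chromosome 12 and 4.85% of 454 on chromosome 16, against 2.82%. Features without a symbol made up 51 of the higher and 55 of the lower calls, with a largest rise of 1.84 and a largest fall of -1.06.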
